A study of Ovis aries with 40 samples.

Results

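Among the named genes on a sheep expression array, 57 genes, read by 87 probes, stood highest when probes were ranked by how much more signal they gave at 135 d than at 70 d of gestation in both Texel and Ujumqin fetuses. The array names 977 genes through 1605 of its 15008 probes. For each named probe the increase of the mean from 70 to 135 d was taken in each breed, the smaller of the pair of increases gave the rank, and the top 100 probes were kept. Genes of the contractile myosin, troponin and tropomyosin families, IGF, MHC, collagen, globin, immunoglobulin, interferon and lipid genes and a short list of single genes were set aside, which removed 13 probes of 8 genes (ALDH1A1, HBB, OVAR, FABP4, LPL, PTPLA, LSDP5 and CPT1B). The members were thus chosen by the values of T70, T135, U70 and U135, and those values are given below as a description with no test.

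The study hybridized RNA of longissimus dorsi, the long back muscle, to 40 1-colour Agilent arrays, 1 animal per array. Texel, a heavily muscled meat breed, gave fetuses of 5 ages named by days of gestation (T70, T85, T100, T120 and T135, 16 arrays), and Ujumqin, an indigenous Chinese breed, gave fetuses of the same ages (U70 to U135, 15 arrays) and lambs at birth, 1 month and 2 months (Ubirth, U1month and U2month, 9 arrays). Each group had 3 animals, except T100 with 4. All animals were purebred and unmanipulated, the ewes were inseminated artificially after synchronized oestrus, and the labels give no genotype for any animal. Fetuses were collected from 3 ewes per stage, so T100, with 4 animals, may include twins. All 3 T120 fetuses were male and all 3 U120 fetuses female, U135 and U2month were also all female, and the other groups mixed the sexes.

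Fetal muscle fibres multiply by fusion of myoblasts and then enlarge and mature in late gestation, when the tissue builds up glycogen breakdown, glycolysis and mitochondrial energy transfer ahead of the demands of breathing, standing and heat production at birth. Late gestation is also the time when fetal cortisol climbs in sheep, and the enzyme HSD11B1 regenerates active cortisol inside tissues. Bulk muscle also contains blood, mast cells, lymphocytes and vessels, so genes of circulating and resident immune cells are read beside those of the fibres.

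The array reads each gene through probes of 60 bases, printed here 5′ to 3′ as the array files give them. The first pair is shown because the highest-ranked member rests on it: both probes come from the same transcript record and share 40 bases, in capitals, yet the probe starting at base 435 was well above background on 31 of 40 arrays and the probe starting at base 455 on 1.
inhibin binding protein, start 435: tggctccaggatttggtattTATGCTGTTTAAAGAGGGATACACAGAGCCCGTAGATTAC
inhibin binding protein, start 455: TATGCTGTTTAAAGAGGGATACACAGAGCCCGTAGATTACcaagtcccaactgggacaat

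The UCP3 pair is shown because many members are read this way, by probes that are nearly the same sequence: these start 1 base apart, share 59 bases, in capitals, and were each well above background on 37 of 40 arrays.
UCP3, start 27: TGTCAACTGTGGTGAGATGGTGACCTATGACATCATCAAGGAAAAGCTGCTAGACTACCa
UCP3, start 26: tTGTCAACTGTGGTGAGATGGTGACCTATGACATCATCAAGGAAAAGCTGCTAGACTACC

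PGR and PYGM are each read by a single probe, with no part marked, and stand for a receptor that was well above background on 26 arrays and an enzyme that was so on all 40.
PGR, start 1065: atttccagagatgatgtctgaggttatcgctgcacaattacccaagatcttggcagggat
PYGM, start 2393: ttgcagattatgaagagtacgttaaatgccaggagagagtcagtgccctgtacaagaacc

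Of the 57 members, 29 were read by at least 2 member probes, and for 22 of these the probes shared a run of at least 30 bases, so these probes are not independent measurements. Searched as reverse complements, the GAPDH entry shares 23 bases with the probe of the partial GAPDH mRNA, ATP1B1 54 bases with a probe of an unnamed transcript and MT4 53 bases with a probe that was well above background on 0 arrays. The probes of each such pair read opposite strands, so which transcript the GAPDH entry, ATP1B1 and MT4 read is uncertain. Values below are those of the highest-ranked probe of each gene, as log2 of the quantile-normalised processed signal, here called log2 intensity. A probe's level depends on its own sequence, so levels are compared between arrays and not between genes.

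Across the 40 arrays the median processed signal ran from 218 to 708, between 79.3 and 90.9% of spots were well above background and no spot was saturated. The median signal tended to be lower at later stages. It was 583 to 617 at T85, 298 to 474 at T120, 424 to 583 at U85 and 359 to 491 at U120. Quantile normalisation sets all arrays to the same distribution, and the part of this trend in the changes below was not tested. The arrays lay on 5 slides, and T85 and T120, like U85 and U120, never shared a slide. The 5 skeletal muscle markers outside the 57 members that the array carried, MYOD1, MYF5 and MYOG among them, were well above background in every group. T85 replicate 2 stood apart in 3 members, at 8.50 for MT4, 7.69 for the inhibin binding protein and 7.21 for XDH, where the other T85 arrays lay at or under 4.08, and results that rest on it are given with and without it.

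In the arrays that chose them, the smaller of the pair of 70 to 135 d increases ran from 2.04 to 7.29 on the log2 scale with a median of 2.78. It was largest among hormone and receptor genes, with a median of 3.96 over 9 genes, and smallest among redox and stress genes (2.35, 6 genes) and transport genes (2.35, 4 genes). Just inside the limit lay another NPVF probe at 2.05, NAMPT at 2.04 and another ALDOA probe at 2.01, and just outside it CR2 at 1.98, MDH at 1.98 and another CHRD probe at 1.97. Members were well above background on every array of the group for 38 genes at U70 and 40 at T70, and for 57 at U135 and 55 at T135.

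The remaining arrays were used to ask whether the same genes also climbed between stages whose arrays had no part in choosing them. These stages lie within the 70 to 135 d interval of the ranking. The 70 and 85 d arrays lay on slides 1 and 2, and the 120 and 135 d arrays on slides 3 to 5. A difference between slides could therefore enter both the ranking and the changes below, and cannot be told apart from stage in either. From 85 to 120 d in Texel, 49 of the 57 members rose and none fell by limma's test with Benjamini-Hochberg adjustment, where 13.3% of all 14395 probes tested rose and 18.8% fell. All 57 members passed the filter on background. Their median change was 2.14, against -0.07 for all probes. In Ujumqin 42 of 57 rose and none fell, where 7.77% of probes rose and 7.21% fell, with a median of 1.76 against -0.02. The fit gives each probe 1 estimate of the spread over its 9 groups. The members' median SD was 0.86 at T120, against 0.29 at T85, 0.28 at U85 and 0.38 at U120. Over all probes it was 0.41, 0.17, 0.19 and 0.18 in the same order. Standard errors and p-values of changes that involve T120 are therefore likely too small. Welch's test, which fits each probe alone, called no member from T85 to T120 and 5 members from U85 to U120 after adjustment. Its other counts are given near the end. Every 120 d array lay above every 85 d array for 50 members in Texel (16.5% of probes) and 55 in Ujumqin (19.6% of probes). Of the calls, 40 in Texel and 31 in Ujumqin held whichever single array was left out. Besides those given at their genes below, calls were lost in Texel for ART4 without T85 replicate 1 (1.44) and BHLHE40 without T85 replicate 2 (1.51) or T120 replicate 3 (1.48). In Ujumqin they were lost for AQP3 without U120 replicate 2 (1.65), NAMPT without U85 replicate 1 or U85 replicate 2 (0.82 and 0.88), TPSB2 without U85 replicate 2 or U120 replicate 2 (1.36 and 1.21), and for MAST, CHRD and BHLHE40 under 4, 3 and 5 of 6 omissions (1.06 to 1.23, 1.66 to 1.82 and 1.40 to 1.73).

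The members that rose came from every functional group. In Texel all 9 hormone and receptor genes, 12 of 13 fuel and energy genes, all 4 transport genes, 10 of 11 immune and granule genes, 5 of 6 growth factors and regulators, 6 of 8 other genes and 3 of 6 redox and stress genes rose. In Ujumqin the counts were 8, 11, 3, 8, 5, 3 and 4 in the same order. 38 genes rose in both breeds, 11 in Texel alone and 4 in Ujumqin alone, and EM4b, ENDOG, MT4 and XDH passed in neither.

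With slide as a fixed term, which asks for the change among arrays linked only through other groups, 1 member in Texel (HSD11B1, 4.09) and 0 in Ujumqin passed the test, while 56 and 53 of 57 were still higher at 120 d, with medians of 1.74 and 1.22 and a median standard error that went from 0.44 to 0.88 and 0.84. With slide as a random block the counts were 49 and 41. For fits with a slide term the share of all probes that passed is not given, here or below. Those counts therefore cannot be set against the array as a whole. Because stage and slide run together here, and fewer cells of a type and less RNA per cell cannot be told apart in whole muscle, the part of either in these changes was not tested.

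**Figure D1:**
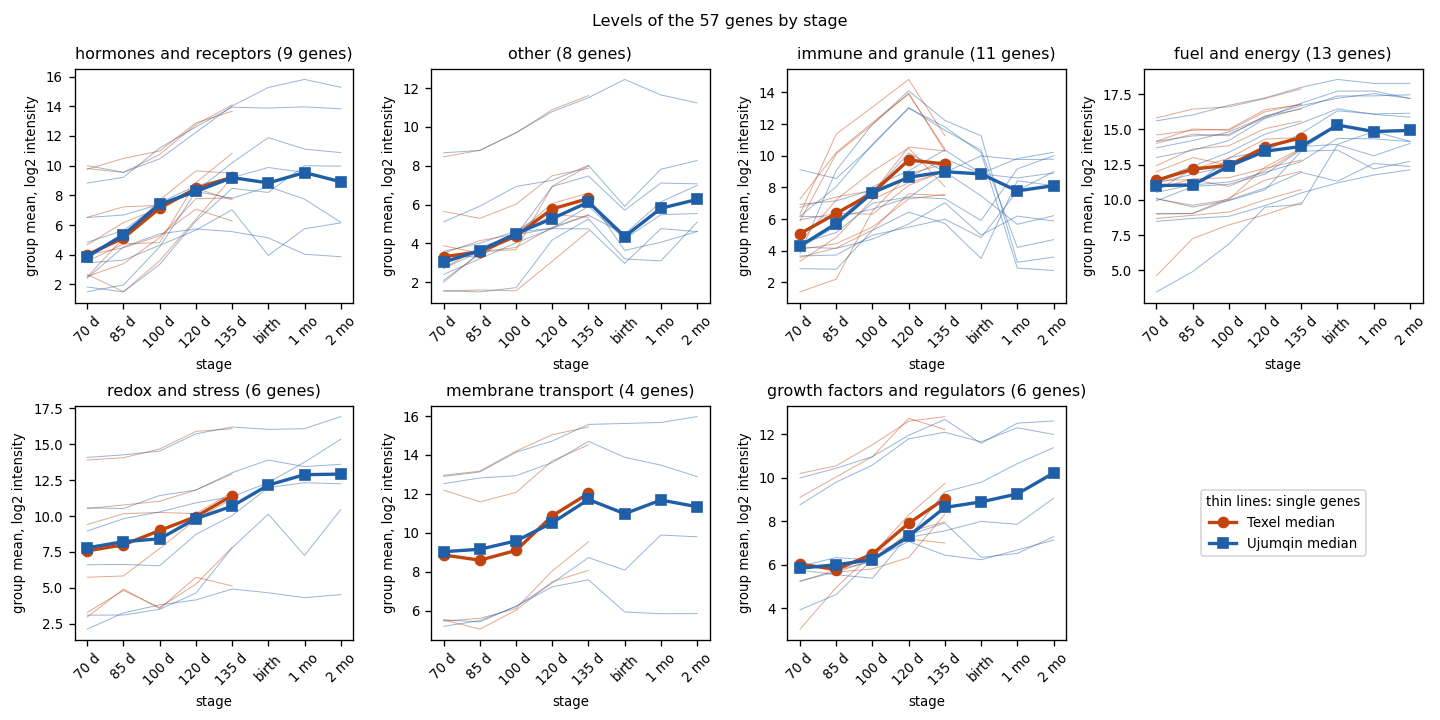
Group means of the 57 genes by stage, in 7 panels by function, as log2 intensity; thin lines are single genes and thick lines the median over the genes of the panel, with Texel in orange and Ujumqin in blue. The fuel median climbs from 11.06 at U85 to 13.45 at U120 and 15.31 at birth, whereas the immune panel holds lines that drop steeply after birth.

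All 9 hormone and receptor genes rose in Texel and 8 of 9 in Ujumqin, with a median change of 3.23 from T85 to T120 and 2.68 from U85 to U120. The inhibin binding protein, a membrane protein first described for binding the gonadal hormone inhibin, read 3.24, 7.69 and 3.27 on the T85 arrays and 8.25, 9.71 and 8.63 at T120. It read 1.97, 1.95 and 2.00 at U85 and 8.53, 8.02 and 8.26 at U120. The 85 and 120 d arrays did not overlap in either breed, and only T85 replicate 2 came near the later level. The change was 4.13 ± 0.72 (SE, adjusted p = 0.000206, limma) in Texel, where 1 of 3 T85 arrays was well above background, and at least 42.8-fold without that array, T85 replicate 2. It was at least 61-fold in Ujumqin (adjusted p = 4.29e-06), where no U85 array was well above background. Since the probe that shares 40 of its bases was well above background on 1 of 40 arrays, the transcript behind the signal is uncertain.

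PGR, the progesterone receptor, read 1.53, 1.52 and 1.52 at T85 and 5.54, 7.66 and 5.98 at T120. It read 1.48, 1.50 and 1.52 at U85 and 8.27, 5.27 and 5.26 at U120. All 85 d arrays sat at the low end of the scale, none well above background, and every later array was higher. The increase was at least 7.67-fold in Texel (adjusted p = 3.60e-05) and at least 15.4-fold in Ujumqin (adjusted p = 0.000103). ESR1, the oestrogen receptor alpha, read 10.60, 10.38 and 10.49 at T85, 12.97, 13.65 and 12.01 at T120, 8.88, 8.99 and 9.80 at U85 and 12.99, 12.38 and 12.47 at U120. It rose by 2.39 ± 0.45 (SE, adjusted p = 0.000428) and 3.39 ± 0.45 (adjusted p = 2.68e-05), with no overlap between the ages.

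HSD11B1, which regenerates active cortisol, had the smallest adjusted p of any member in Texel. It read 5.33, 4.70 and 5.37 at T85, 7.96, 7.59, 7.48 and 7.74 at T100 and 8.96, 9.42 and 10.59 at T120, so the 3 stages did not overlap. The Ujumqin arrays read 5.36, 5.55 and 5.15 at U85, 7.11, 8.15 and 7.27 at U100 and 9.29, 8.47 and 8.15 at U120. The change was 22.9-fold in Texel (log2 4.52 ± 0.37, adjusted p = 3.40e-08) and 9.75-fold in Ujumqin (adjusted p = 3.06e-06), and it was also among the few to pass from 85 to 100 d in both breeds, by 2.56 ± 0.34 and 2.16 ± 0.37.

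PGFS, prostaglandin F synthase, and PTGFR, the receptor for prostaglandin F, both rose. PGFS read 9.62, 9.34 and 9.64 at T85, 13.50, 13.03 and 11.77 at T120, 9.58, 9.40 and 9.68 at U85 and 12.61, 11.91 and 12.18 at U120. Its ages were fully apart, and it rose by 3.23 ± 0.33 (adjusted p = 6.84e-07) and 2.68 ± 0.33 (adjusted p = 1.19e-05). PTGFR read 2.90, 3.19 and 4.12 at T85, 6.99, 8.48 and 7.86 at T120, 3.46, 4.16 and 3.31 at U85 and 5.05, 5.72 and 6.21 at U120. It rose 20.8-fold in Texel (adjusted p = 5.59e-07) and 4.05-fold in Ujumqin (adjusted p = 0.0036).

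OXTR, the oxytocin receptor, read 5.86, 5.66 and 6.99 at T85, 7.82, 7.95 and 9.64 at T120, 5.99, 5.19 and 5.76 at U85 and 8.87, 8.36 and 7.57 at U120. Its 120 d arrays all lay above its 85 d arrays, and it rose by 2.30 ± 0.48 (adjusted p = 0.00104) and 2.62 ± 0.48 (adjusted p = 0.000714). PPY, the precursor of pancreatic polypeptide, rose by 1.10 ± 0.28 and 1.49 ± 0.28. NPVF, the precursor of RFamide peptides that restrain gonadotropin release, read 4.69, 4.56 and 4.16 at T85, 7.42, 6.40 and 7.43 at T120, 4.60, 3.83 and 5.15 at U85 and 6.13, 5.63 and 5.46 at U120. It rose in Texel (adjusted p = 0.00466), while the Ujumqin change of 1.21 ± 0.66 did not pass (adjusted p = 0.234).

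**Figure D2:**
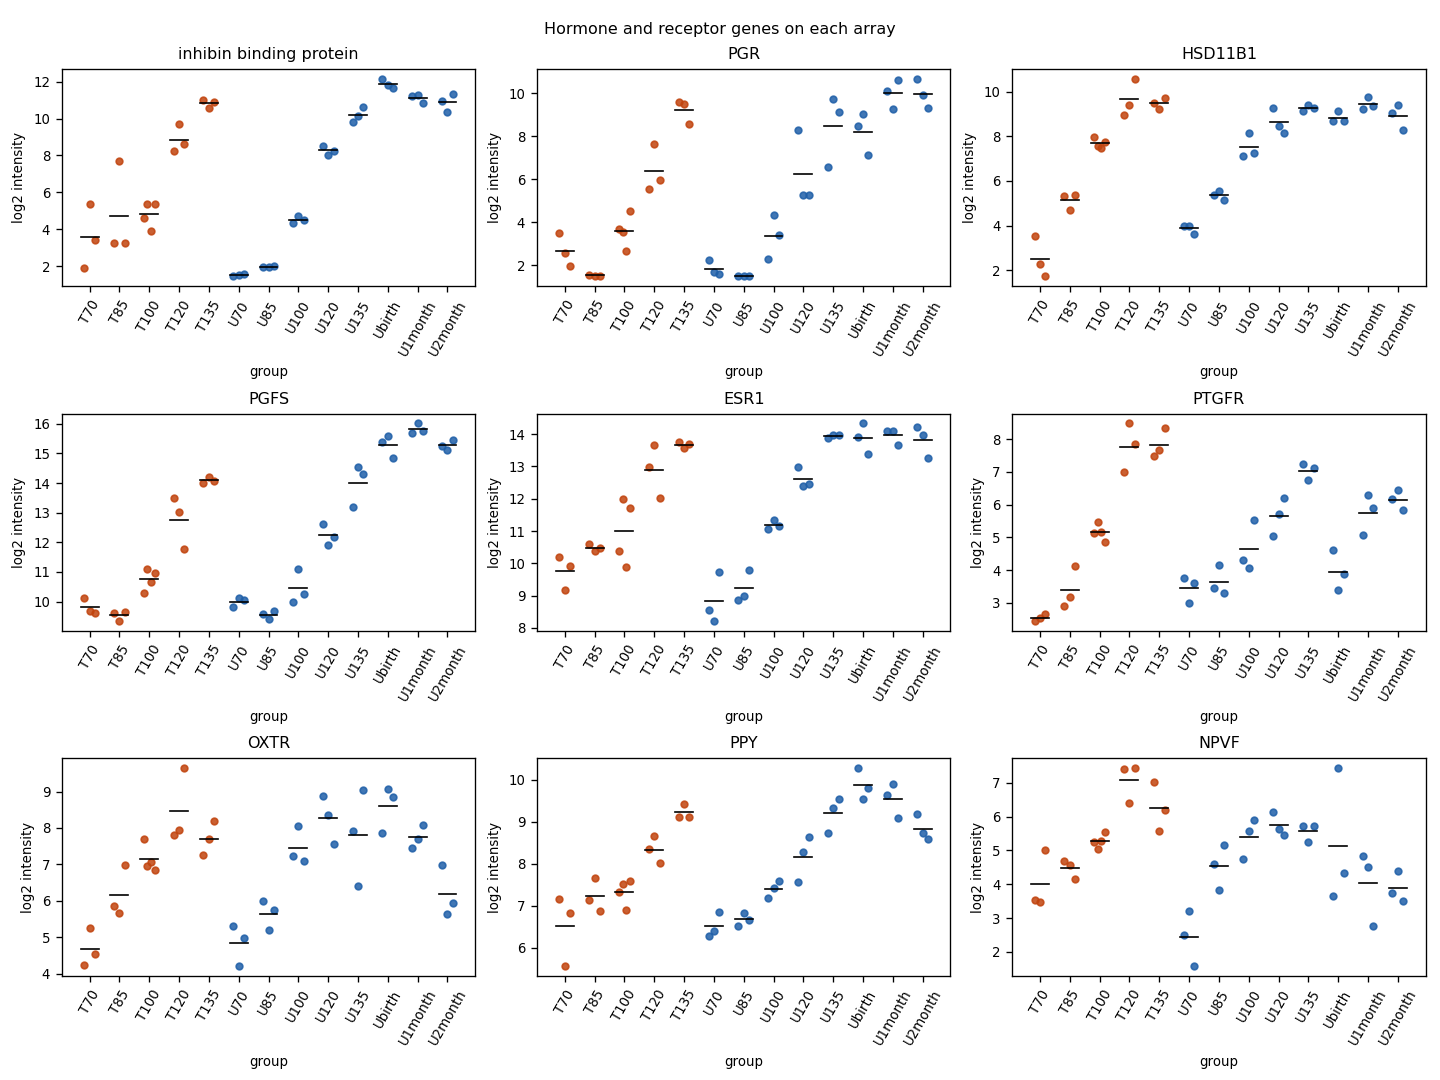
Log2 intensity of the 9 hormone and receptor genes on each array, with 1 point per animal, a bar at the group mean, Texel in orange and Ujumqin in blue. HSD11B1 goes from 4.70 to 5.37 at T85 to 8.96 to 10.59 at T120, and PTGFR is back at 3.38 to 4.61 at birth.

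Of the 13 fuel and energy genes, 12 rose in Texel and 11 in Ujumqin, with median changes of 1.31 and 1.64, or 11 and 10 of 12 with medians of 1.27 and 1.47 when the GAPDH entry is left out. GLUT4, the insulin-responsive glucose transporter, read 12.47, 12.08 and 11.99 at T85, 13.84, 13.97 and 15.15 at T120, 10.04, 10.88 and 11.92 at U85 and 13.90, 13.34 and 13.12 at U120. The ages did not overlap, and GLUT4 rose by 2.14 ± 0.36 (adjusted p = 0.000137) and 2.51 ± 0.36 (adjusted p = 6.46e-05). PYGM, the muscle glycogen phosphorylase, read 13.21, 12.82 and 12.97 at T85, 13.32, 14.20 and 13.73 at T120, 11.98, 11.87 and 11.60 at U85 and 13.39, 13.59 and 13.40 at U120. It rose 1.68-fold in Texel (adjusted p = 0.0071), a call lost without T120 replicate 2 (log2 0.53), and 3.11-fold in Ujumqin (adjusted p = 1.09e-05).

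The enzymes further down glycolysis rose as well. PFKM, the muscle phosphofructokinase, read 11.57, 11.17 and 11.73 at T85, 12.04, 12.26 and 12.41 at T120, 10.96, 11.05 and 11.18 at U85 and 11.92, 11.95 and 11.99 at U120. ALDOA, aldolase A, read 14.77, 14.52 and 14.68 at T85, 15.66, 16.51 and 15.73 at T120, 13.53, 13.67 and 13.34 at U85 and 15.58, 15.81 and 15.94 at U120. In both, all 120 d arrays lay above all 85 d arrays, and the changes were 0.75 ± 0.16 and 0.89 ± 0.16 for PFKM and 1.31 ± 0.21 and 2.26 ± 0.21 for ALDOA, each past the threshold in limma's test.

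The partial mRNA of GAPDH, the next enzyme of the pathway, read 15.10, 14.80 and 14.93 at T85, 16.29, 16.81 and 16.12 at T120, 14.37, 14.89 and 14.34 at U85 and 15.76, 15.77 and 15.99 at U120. ENO3, the muscle enolase, read 13.87, 13.42 and 13.52 at T85, 14.92, 15.01 and 15.25 at T120, 12.35, 12.75 and 12.08 at U85 and 14.67, 14.62 and 14.68 at U120. The 85 and 120 d arrays were apart for both genes in both breeds. The GAPDH transcript rose by 1.46 ± 0.19 and 1.30 ± 0.19, and ENO3 by 1.46 ± 0.20 and 2.27 ± 0.20, the latter with the smallest adjusted p of any member in Ujumqin (1.33e-07). The signal of the separate GAPDH entry, whose probe lies in the opposite orientation, rose by 2.36 ± 0.26 and 1.82 ± 0.26, and LDHA, the muscle form of lactate dehydrogenase, by 1.22 ± 0.25 and 1.69 ± 0.25.

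UCP3, the uncoupling protein of muscle mitochondria, read 7.61, 6.71 and 7.45 at T85, 8.72, 9.57 and 8.53 at T120, 5.76, 5.58 and 3.36 at U85 and 9.14, 9.28 and 10.02 at U120. The 85 d arrays were lower throughout, and lowest in Ujumqin. It rose 3.22-fold in Texel (log2 1.68, adjusted p = 0.0358) and 24-fold in Ujumqin (log2 4.58, adjusted p = 2.36e-05), but the Texel change turned to -0.37 with slide as a fixed term and missed the threshold without T85 replicate 2 (1.41), T85 replicate 3 (1.78) or T120 replicate 2 (1.37). The other UCP3 member probe, of nearly the same sequence, rose by 2.55 in Texel (adjusted p = 0.00344, limma) and 4.29 in Ujumqin (adjusted p = 6.62e-05). SLC25A4, the mitochondrial exchanger of ADP and ATP, rose by 0.75 ± 0.18 and 1.21 ± 0.18, and NAMPT, which recycles nicotinamide to NAD, by 1.10 ± 0.25 and 0.91 ± 0.25. ENDOG, a nuclease of the mitochondrial intermembrane space, read 11.21, 11.49 and 11.62 at T85, 11.53, 13.46 and 11.25 at T120, 11.08, 10.69 and 11.07 at U85 and 11.43, 11.94 and 12.10 at U120, and its changes of 0.64 ± 0.34 and 0.88 ± 0.34 did not pass. PDXK, pyridoxal kinase, rose by 2.72 ± 0.50 in Texel, and its Ujumqin change of 1.22 ± 0.50 did not pass (adjusted p = 0.107).

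All 4 transport genes rose in Texel. ATP1B1, the beta subunit of the sodium pump, read 13.40, 13.41 and 12.70 at T85, 15.24, 14.89 and 14.99 at T120, 12.86, 13.16 and 13.36 at U85 and 14.96, 14.50 and 14.71 at U120. The system N transporter, a glutamine carrier, read 5.36, 4.95 and 4.87 at T85, 6.89, 7.74 and 7.85 at T120, 5.19, 5.40 and 5.69 at U85 and 7.01, 7.25 and 7.44 at U120. Neither overlapped between 85 and 120 d, and they rose by 1.87 ± 0.22 and 1.60 ± 0.22 and by 2.43 ± 0.35 and 1.80 ± 0.35. AQP3, a channel for water and glycerol, rose by 2.44 ± 0.49 and 1.93 ± 0.49. AQP4, the water channel of the fibre membrane, rose by 2.10 ± 0.29 in Texel (adjusted p = 1.79e-05), while the Ujumqin change of 0.79 ± 0.29 did not pass (adjusted p = 0.0677).

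Of the 6 redox and stress genes, 3 rose in Texel and 4 in Ujumqin. GSTA1, a glutathione transferase, read 5.56, 5.67 and 6.27 at T85, 8.63, 10.39 and 10.23 at T120, 6.86, 6.40 and 6.64 at U85 and 9.12, 8.33 and 8.71 at U120. It rose 15.1-fold in Texel (log2 3.92, adjusted p = 1.51e-07) and 4.24-fold in Ujumqin (log2 2.09, adjusted p = 0.000416). The other member probe of GSTA1 rose less, by 2.11 in Texel (adjusted p = 1.45e-05, limma) and 1.10 in Ujumqin (adjusted p = 0.0105). The size of the GSTA1 change thus depends on the probe. SOD2, the mitochondrial superoxide dismutase, rose by 1.04 ± 0.30 and 1.30 ± 0.27, the Texel value resting on 2 T85 arrays because replicate 2 was an outlier spot that the fit dropped, and lost without T85 replicate 1. VDUP1, an inhibitor of thioredoxin, rose by 1.83 ± 0.31 and 1.46 ± 0.31.

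XDH, which oxidises purines to urate, read 4.08, 7.21 and 3.18 at T85, 4.27, 6.59 and 4.91 at T120, 3.09, 3.81 and 2.42 at U85 and 4.04, 5.36 and 4.49 at U120. The Texel ages overlapped and neither change passed, at 0.43 ± 1.01 and 1.52 ± 1.01, nor did the Texel change of 1.62 without T85 replicate 2 (adjusted p = 0.252). HSP70.1, an inducible chaperone, read 10.52, 10.33 and 9.63 at T85, 10.04, 9.83 and 10.64 at T120, 9.66, 10.44 and 9.31 at U85 and 10.69, 11.06 and 11.01 at U120. It rose in Ujumqin by 1.12 ± 0.37 (adjusted p = 0.0433), a call lost under 5 of 6 omissions of a single array (0.87 to 1.23), and the Texel change was 0.01 ± 0.37. The other member probe of HSP70.1 did not pass in Ujumqin (0.99, adjusted p = 0.0846, limma) and changed by -0.06 in Texel. MT4, a metallothionein, changed by 0.82 ± 0.88 and 0.89 ± 0.88, neither past the threshold, and by 2.62 in Texel without T85 replicate 2 (adjusted p = 0.000846).

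Of the 11 immune and granule genes, 10 rose in Texel and 8 in Ujumqin, with median changes of 3.45 and 3.33. CATHL1B, BAC5 and CATHL3 are cathelicidins, antimicrobial peptides that neutrophil precursors store in granules, and LTF is lactoferrin of the same cells. CATHL1B read 13.52, 11.29 and 9.30 at T85, 15.82, 14.33 and 14.32 at T120, 7.51, 8.36 and 11.36 at U85 and 12.30, 15.18 and 14.80 at U120. The ages did not overlap, but arrays of 1 group lay far apart, as from 9.30 to 13.52 at T85. It rose in Ujumqin by 5.02 ± 1.42 (adjusted p = 0.0191), a call lost without U85 replicate 1, U85 replicate 2, U120 replicate 2 or U120 replicate 3 (4.23 to 4.66), and its Texel change of 3.45 ± 1.42 did not pass (adjusted p = 0.0674).

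BAC5 read 11.87, 9.65 and 8.85 at T85, 14.92, 13.06 and 13.86 at T120, 6.52, 7.34 and 10.26 at U85 and 11.32, 14.00 and 13.75 at U120. CATHL3 read 11.89, 9.66 and 9.06 at T85, 14.84, 13.15 and 13.71 at T120, 7.40, 7.96 and 10.33 at U85 and 11.33, 13.95 and 13.74 at U120. LTF read 8.22, 6.63 and 6.81 at T85, 11.60, 10.17 and 9.68 at T120, 4.96, 4.69 and 7.01 at U85 and 8.66, 11.05 and 10.81 at U120. All 3 were higher on every 120 d array than on any 85 d array, and rose by 3.82 ± 1.15, 3.70 ± 1.20 and 3.26 ± 0.86 in Texel and by 4.98 ± 1.15, 4.44 ± 1.20 and 4.62 ± 0.86 in Ujumqin. The Texel calls of BAC5 and CATHL3 were lost without T85 replicate 2 (3.58 and 3.43) or replicate 3 (3.18 and 3.13), as was that of CATHL3 without T120 replicate 1 (3.23), and the Ujumqin call of CATHL3 was lost without U85 replicate 1, U85 replicate 2, U120 replicate 2 or U120 replicate 3 (3.86 to 4.14).

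The granule genes shared their highest animal: in 10 of 13 groups the same array was the highest for CATHL1B, BAC5, CATHL3 and LTF. The T100 arrays show it best, with replicate 4 at 16.66, 15.41, 15.67 and 11.78 where the other 3 arrays lay at or under 12.35, 11.14, 11.33 and 8.39. The longest run that any pair of the 3 cathelicidin probes shares is 11 bases. Whether each probe also reads the transcripts of the other cathelicidins was not tested.

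FCER1A, the alpha chain of the IgE receptor of mast cells, read 6.98, 5.31 and 6.55 at T85, 8.94, 10.87 and 11.83 at T120, 6.25, 5.62 and 5.29 at U85 and 8.68, 9.52 and 8.94 at U120. It rose 19.3-fold in Texel (adjusted p = 6.13e-05) and 10-fold in Ujumqin (adjusted p = 0.00141), with no overlap. TPSB2, the mast cell tryptase, rose by 2.33 ± 0.39 and 1.49 ± 0.39, and the same array was highest for both genes in 9 of 13 groups. MAST, an entry whose role the files do not describe, rose by 1.77 ± 0.35 and 1.25 ± 0.35. It is counted with the immune and granule genes, a place that the files do not settle.

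GNLY, the granulysin of cytotoxic lymphocytes, read 2.92, 1.45 and 2.25 at T85, 6.80, 8.15 and 11.59 at T120, 3.28, 2.41 and 2.81 at U85 and 6.47, 6.04 and 6.80 at U120. No T85 array was well above background, and the Texel increase was at least 42-fold (adjusted p = 0.000356), the largest fitted change of any member there, while the Ujumqin change of 3.61 ± 1.22 did not pass (adjusted p = 0.0504). Both further GNLY probes, from a different transcript record, were not called. The brighter of these was well above background on every array and stayed level, with means of 8.10 at T85 and 8.13 at T120 (0.03, adjusted p = 0.965). In Ujumqin its means were 8.02 at U85 and 7.95 at U120. The dimmer changed by 1.11 in Texel (adjusted p = 0.237), with 1 T120 array well above background. The GNLY increase thus rests on the member probes alone. CD3 gamma, a chain of the T cell receptor complex, rose in Texel by 3.46 ± 0.88 and FCGR2B, an inhibitory receptor for IgG, by 3.43 ± 0.69, and neither passed in Ujumqin (2.24 ± 0.88 and 1.76 ± 0.69). T120 replicate 3 was the highest array for all 3 genes, and without it all still passed, GNLY at least 16.2-fold higher, CD3 gamma by 2.20 and FCGR2B by 2.57. The same array was highest for all 3 in 4 of 13 groups. TLR5, the receptor for bacterial flagellin, read 4.84, 3.75 and 4.76 at T85, 6.52, 8.10 and 7.19 at T120, 4.02, 3.94 and 4.49 at U85 and 5.88, 5.01 and 6.20 at U120. It rose by 2.82 ± 0.42 (adjusted p = 3.78e-05) and 1.54 ± 0.42 (adjusted p = 0.0143), the latter lost without U85 replicate 1, U85 replicate 2 or U120 replicate 3 (1.29 to 1.48).

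Beside these changes stand the levels of 12 leukocyte markers that are not members. Their summed signal was 5940 to 6900 at T85 and 6310 to 22800 at T120, and 5710 to 6070 at U85 and 5600 to 6850 at U120. Of the 11 tested, 4 rose and 1 fell in Texel, and 1 rose in Ujumqin, and CD4 and CD28 were well above background on no array of T120 or U120. Their part in the immune results was not tested.

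**Figure D3:**
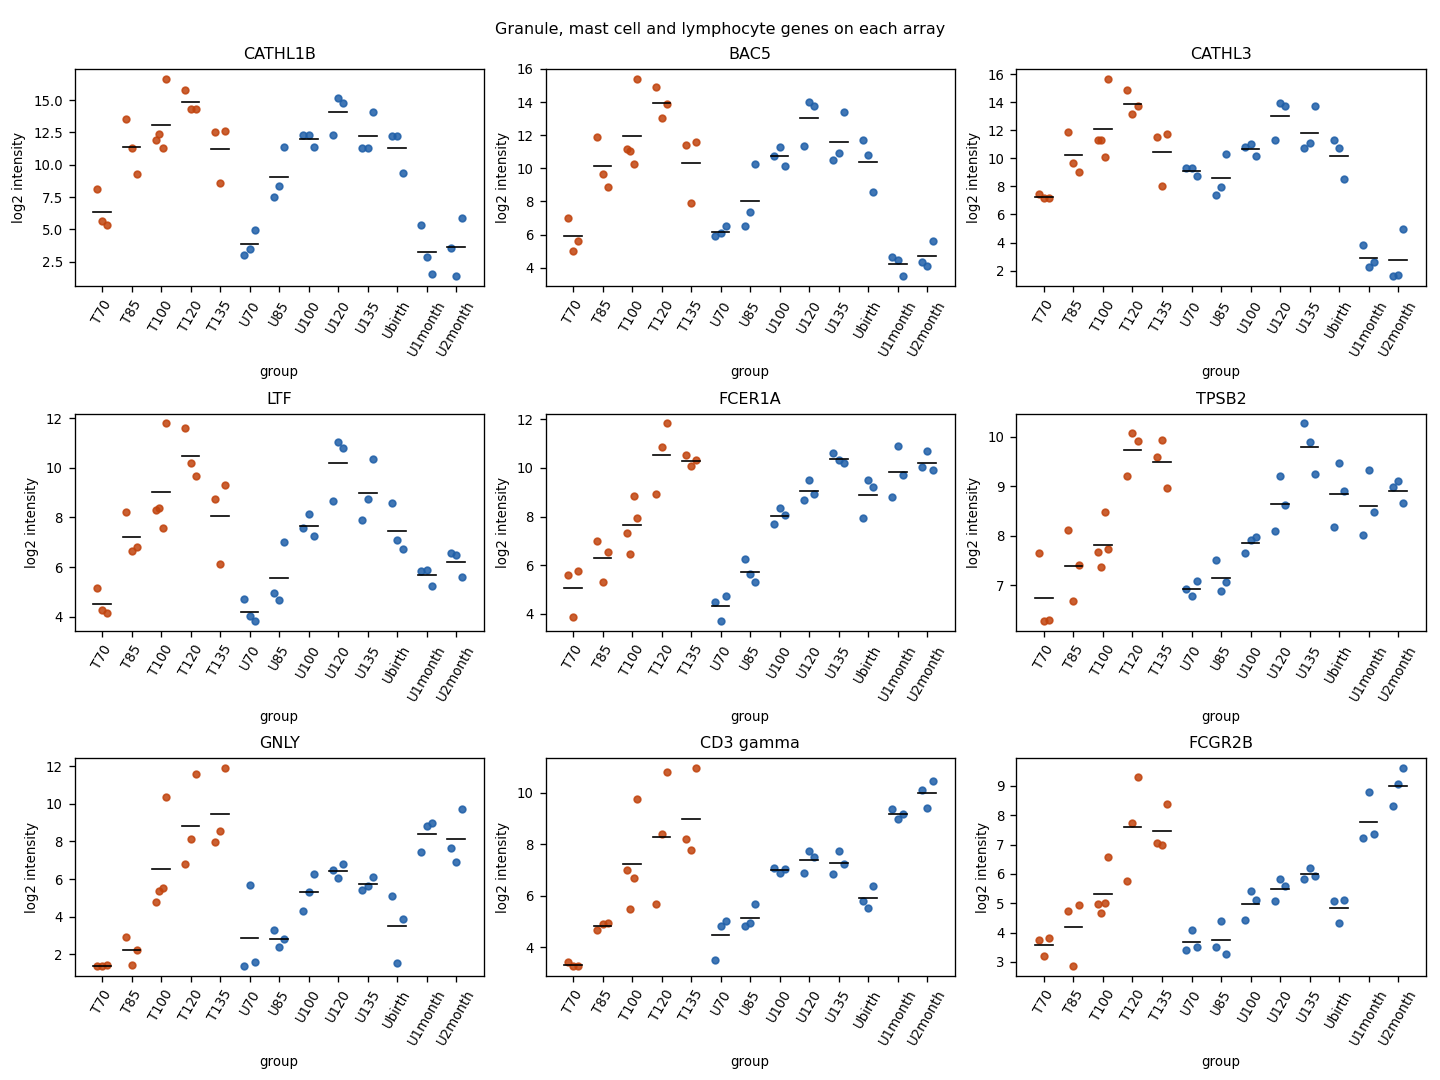
Log2 intensity of 9 granule, mast cell and lymphocyte genes on each array, with 1 point per animal and a bar at the group mean. The group means of the cathelicidins peak at T120 and U120, and their arrays lie at or under 5.37 at U1month, while the mean of GNLY goes from 6.44 at U120 to 3.51 at birth and 8.42 at 1 month.

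Of the 6 growth factors and regulators, 5 rose in each breed, with median changes of 2.13 and 1.71. VEGFA, which drives vessel growth, rose by 2.69 ± 0.35 and 1.99 ± 0.35, IL15, a cytokine that muscle releases, by 2.22 ± 0.40 and 2.44 ± 0.40, and FLT3LG, a growth factor for blood progenitors, by 2.05 ± 0.29 and 1.51 ± 0.29. The other member probes of IL15 rose too, by 1.96 and 1.59 in Texel. A brighter IL15 probe outside the ranking, well above background on all these arrays, did not rise in Texel. Its means were 7.83 at T85 and 8.02 at T120 (0.20, adjusted p = 0.642, limma). In Ujumqin it rose from 7.25 to 8.47 (1.23, adjusted p = 0.00613), so the Texel rise of IL15 depends on the probe. BHLHE40, a transcriptional repressor of the clock and hypoxia responses, rose by 1.75 ± 0.49 and 1.59 ± 0.49. CEBPB, a transcription factor of adipocyte and acute phase programs, rose in Texel by 2.50 ± 0.59 and CHRD, the BMP antagonist chordin, in Ujumqin by 1.83 ± 0.51, and the other breed's changes of 0.94 ± 0.59 and 0.66 ± 0.51 did not pass.

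Of the 8 other genes, ART5, an ADP-ribosyltransferase of muscle, read 8.99, 8.21 and 9.20 at T85, 10.55, 11.48 and 10.63 at T120, 8.98, 8.52 and 8.86 at U85 and 10.72, 10.86 and 10.81 at U120. It rose by 2.08 ± 0.26 (adjusted p = 6.62e-06) and 2.01 ± 0.26 (adjusted p = 2.13e-05). ART4, a relative that carries blood group antigens, rose in Texel by 1.96 ± 0.51. CRYBB3, a crystallin best known from the lens, read 3.64, 4.42 and 4.38 at T85, 6.85, 6.37 and 4.97 at T120, 4.33, 4.46 and 3.24 at U85 and 6.18, 5.48 and 5.66 at U120, and rose in Texel (adjusted p = 0.0218, lost without T85 replicate 1, T120 replicate 1 or T120 replicate 2 at 1.52 to 1.77) but did not pass in Ujumqin (adjusted p = 0.0586). The other member probe of CRYBB3 passed in both breeds, by 1.62 in Texel (adjusted p = 0.0221, limma) and 1.94 in Ujumqin (adjusted p = 0.0151).

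The EP4 and EM4 entries are transcripts whose function the array's descriptions do not give. EP4d read 3.55, 3.22 and 3.94 at T85, 5.04, 8.23 and 7.57 at T120, 3.41, 3.40 and 3.60 at U85 and 5.41, 8.23 and 7.15 at U120, and rose by 3.38 ± 0.77 and 3.46 ± 0.77. EP4a rose at least 3.61-fold in Ujumqin, where 2 of 3 U120 arrays and no U85 array were well above background (adjusted p = 0.0156), a call lost without U120 replicate 2 (at least 2.7-fold). EM4c read 5.43, 5.02 and 5.43 at T85, 5.98, 8.15 and 8.34 at T120, 6.28, 5.33 and 6.14 at U85 and 6.31, 8.39 and 7.05 at U120, and rose in Texel by 2.20 ± 0.53, and EM4e rose there at least 3.04-fold (adjusted p = 0.0303), a call lost under 4 of 6 omissions of a single array (at least 1.98-fold to at least 2.94-fold). EM4b read 3.19, 3.25 and 4.26 at T85, 3.15, 5.58 and 5.72 at T120, 3.63, 3.32 and 2.68 at U85 and 3.98, 5.04 and 5.25 at U120, and neither of its changes passed.

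**Figure D4:**
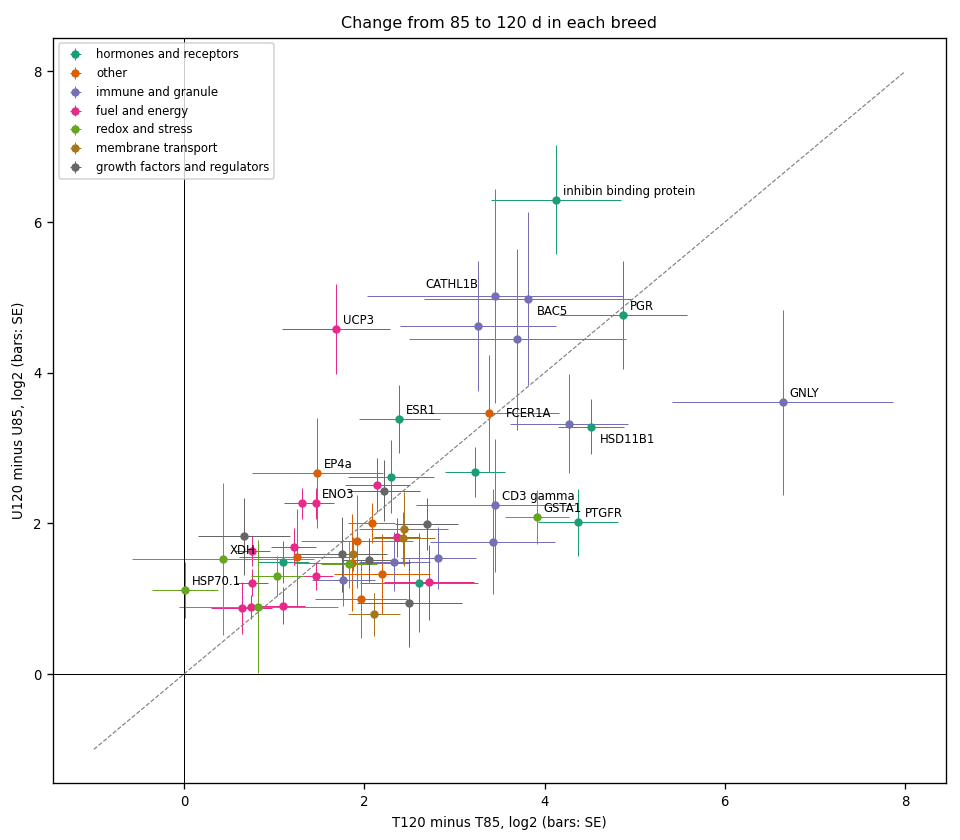
Change from 85 to 120 d in Texel (x axis) against Ujumqin (y axis) for the 57 genes, log2 with SE bars, coloured by function; the dashed line marks equal change. All points lie above 0 on both axes, GNLY and PTGFR fall to the Texel side and UCP3 and the inhibin binding protein to the Ujumqin side, and no gene's difference between the breeds passed the test over all arrays.

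Whether the breeds differed was asked of the change and of each age. The change from 85 to 120 d was larger in Texel for 31 of 57 members, with a median difference of 0.16 against -0.06 for all probes. Its difference between the breeds passed for 0 members by limma (0.16% of all probes passed, 12 members and 14.5% of probes had an unadjusted p under 0.05, and PTGFR passed with the normexp background). The smallest adjusted p belonged to PTGFR (2.36 ± 0.63, adjusted p = 0.113), GSTA1 (1.83 ± 0.51, adjusted p = 0.123) and UCP3 (-2.90 ± 0.85, adjusted p = 0.142). Without T120 replicate 1 the difference passed for 4 members, GSTA1 (2.39), PDXK (2.41), AQP4 (1.71) and PTGFR (2.75), and without T120 replicate 2 for ALDOA (-1.22). The genes called in 1 breed alone are therefore not shown to differ between the breeds over all arrays.

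At 85 d AQP4 was the 1 member of 55 tested that differed between the breeds (0.0574% of probes, with 13 members and 13.7% of probes at an unadjusted p under 0.05). It read 11.45, 11.65 and 11.67 at T85 and 12.80, 12.85 and 12.81 at U85, and 12.91, 13.92 and 14.26 at T120 and 13.63, 13.91 and 13.29 at U120. Every T85 array lay below every U85 array, the difference was -1.23 ± 0.11 (adjusted p = 0.0447), and the call was lost when any 1 of the 6 arrays was left out, with differences of -1.27 to -1.16. ALDOA (1.14 ± 0.13, adjusted p = 0.0802) and PYGM (1.18 ± 0.16, adjusted p = 0.0965) were higher on every T85 array than on any U85 array and did not pass.

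At 100 d, 0 of 56 members passed (0.0143% of probes, with 8 members and 13.5% of probes at an unadjusted p under 0.05). GSTA1 read 7.59, 7.94, 7.74 and 7.70 at T100 and 6.34, 7.02 and 6.25 at U100, and AQP4 read 12.21, 12.19, 12.16 and 11.76 at T100 and from 12.78 to 13.05 at U100. Both were apart between the breeds, in opposite directions, at 1.21 ± 0.20 and -0.86 ± 0.15 (both adjusted p = 0.137). TLR5 differed by 0.78 ± 0.25. At 120 d, 0 of 57 passed (0.0361% of probes, with 8 members and 10.7% of probes at an unadjusted p under 0.05), and the smallest adjusted p belonged to PTGFR (2.12 ± 0.46, adjusted p = 0.372), NPVF (1.34 ± 0.35) and TLR5 (1.58 ± 0.48). Sex and breed cannot be told apart at 120 d. On the slides that held both breeds, 42 of 57 members were higher at T85 than U85 (slide 2, 1 array against 3, median 0.37, 49.4% of probes). On slide 3 the count was 44 at 100 d (3 arrays against 1, median 0.30, 47.2% of probes) and on slide 4 it was 50 at 120 d (2 arrays against 3, median 0.55, 43.9% of probes).

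The interval from 85 to 120 d can be divided at 100 d. In Texel 10 members rose from 85 to 100 d (2.63% of probes rose) with a median of 0.69, and 37 from 100 to 120 d (6.45% of probes) with a median of 1.47, and 47 of 57 members changed more in the later interval. In Ujumqin 6 rose from 85 to 100 d (0.813% of probes) with a median of 0.81 and 12 from 100 to 120 d (0.834% of probes) with a median of 1.02, and 36 of 57 changed more in the later interval. The share of all probes that changed more in the later interval was not counted, and the difference between the intervals was not tested.

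HSD11B1, ATP1B1 and IL15 rose from 85 to 100 d in both breeds. ATP1B1 read 13.67, 14.69, 14.22 and 14.23 at T100 and 14.19, 14.11 and 14.12 at U100, already 1.03 ± 0.21 and 1.01 ± 0.22 above 85 d. The Ujumqin call of ATP1B1 was lost under 5 of 6 omissions of a single array (0.88 to 1.03), that of IL15 also under 5 (1.38 to 1.75), and the Texel call of IL15 without T85 replicate 1 (1.47) or T85 replicate 2 (1.53). GLUT4 read 13.32, 12.88 and 12.78 at U100, 2.05 ± 0.36 above U85. ENO3 read 13.36, 13.23 and 13.52 at U100 and rose by 0.98 ± 0.20 in that interval, a call lost without U85 replicate 1, U85 replicate 3 or U100 replicate 3 (0.82 to 0.95), and by 1.29 ± 0.20 in the next.

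GNLY rose at least 8.32-fold from T85 to T100 (adjusted p = 0.0238), a call lost without T100 replicate 4 (at least 3.42-fold) or any of the T85 arrays. The counts for this interval went from 10 to 5 without T85 replicate 1 or T85 replicate 2 and 6 without T100 replicate 4, and from 6 to 2 without U85 replicate 1 or U100 replicate 3 and 3 without U85 replicate 2 or U100 replicate 2.

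From 100 to 120 d the partial GAPDH mRNA, ALDOA and ENO3 were among the 4 members with the smallest adjusted p in both breeds. The partial GAPDH mRNA read 14.98, 15.27, 15.03 and 14.74 at T100 and 14.82, 14.62 and 14.53 at U100 and rose by 1.40 ± 0.18 and 1.18 ± 0.19. ALDOA read 14.43, 14.73, 14.16 and 14.89 at T100 and 14.21, 14.03 and 14.40 at U100 and rose by 1.41 ± 0.19 and 1.57 ± 0.21. PYGM read 12.14, 12.68, 12.52 and 12.47 at T100 and 12.41, 12.31 and 12.44 at U100, so that its T100 arrays lay below its T85 arrays (-0.55 ± 0.19, adjusted p = 0.0742), and it rose by 1.30 ± 0.19 from T100 to T120. The Ujumqin count for this interval went from 12 to 6 without U100 replicate 1 or U120 replicate 2 and 7 without U120 replicate 3.

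Some slides held both ends of an interval. On slide 4, which held 3 U120 and 2 U100 arrays, 56 of 57 members were higher at U120 with a median of 0.86 (49% of all probes were higher). On slide 3, with 1 T120 and 3 T100 arrays, 52 of 57 were higher at T120 with a median of 0.91 (45.1% of probes), and on slide 2, with 1 array each, 44 were higher at T100 than T85 with a median of 0.54 (49.9% of probes). With slide as a fixed term 5 members still rose from T100 to T120 (inhibin binding protein, LDHA, partial GAPDH mRNA, ALDOA and PGFS) and 8 from U100 to U120 (these 5 with GSTA1, ENO3 and PYGM), and 0 from 85 to 100 d. Here too the share of all probes that passed is not given.

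The Ujumqin postnatal arrays show what became of the members after the window that chose them. From 120 d to birth 24 rose and 7 fell, where 25.5% and 28.6% of probes did. In the fuel and energy group 11 of 13 rose and none fell, with a median change of 1.80. Of the 11 immune and granule genes 1 rose and 2 fell, with a median of -1.49. The 1 that rose, by 2.64, was MAST, whose role the files do not describe. The members that changed in either direction were 54.4% of the 57, against 54.0% of all probes, a share near that of the array as a whole, and were split into 42.1% up and 12.3% down. Of 8 fibroblast markers outside the members 6 fell in this interval (median -1.23), their summed signal going from 429000 to 504000 at U120 to 191000 to 282000 at birth, and of 11 leukocyte markers 3 rose and 3 fell, with sums of 5600 to 6850 at U120 and 3190 to 3750 at birth. Their part in the changes of the members was not tested. The interval spans 135 d, whose arrays served the ranking, and birth, so it includes changes on both sides of delivery.

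PYGM read 16.35, 16.44 and 16.18 at birth, PFKM 14.63, 14.47 and 13.97 and ENDOG 15.14, 15.31 and 15.48, each far above every U120 array. They rose by 2.86 ± 0.20 (adjusted p = 3.94e-10), 2.40 ± 0.16 (adjusted p = 1.97e-10) and 3.49 ± 0.34 (adjusted p = 4.33e-08) and also with slide as a fixed term. UCP3 read 13.85, 14.13 and 13.73 at birth, a rise of 21.4-fold (adjusted p = 2.94e-06), and stayed between 12.70 and 14.14 at 1 and 2 months. XDH read 8.50, 11.48 and 10.42 at birth, 5.91, 8.47 and 7.39 at 1 month and 11.50, 8.19 and 11.66 at 2 months. It rose by 5.50 ± 1.01, fell by 2.87 in the first month (adjusted p = 0.0466, lost under 4 of 6 omissions at -2.94 to -2.20) and changed by 3.20 ± 1.01 in the next (adjusted p = 0.0601).

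Hormone genes parted at birth. PGFS read 15.38, 15.58 and 14.85 at birth, 3.04 ± 0.33 above U120, the inhibin binding protein 12.16, 11.84 and 11.65 (3.61 ± 0.72), and ESR1 13.91, 14.33 and 13.39 (1.26 ± 0.45), and all 3 rose, the call of ESR1 being lost without Ubirth replicate 2, U120 replicate 2 or U120 replicate 3 (1.04 to 1.19). PTGFR read 4.61, 3.38 and 3.88 at birth and 5.06, 6.29 and 5.91 at 1 month. It fell by 1.70 at birth (adjusted p = 0.00273) and rose by 1.80 ± 0.44 afterwards (adjusted p = 0.00703). HSD11B1 read 8.69, 9.14 and 8.69 at birth, with a change of 0.20 ± 0.37 that did not pass.

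The other members that fell at birth were few. The system N transporter read 5.74, 5.62 and 6.45, below every U120 array, and fell by 1.30 (adjusted p = 0.0034). CRYBB3 read 3.80, 4.62 and 2.51, at least 3.13-fold lower, and EM4b 3.61, 1.44 and 3.86, at least 1.62-fold lower, with no birth array well above background for either. EM4c read 5.73, 5.32 and 6.68 (fell by 1.34), LTF 8.58, 7.08 and 6.73 (fell by 2.71, adjusted p = 0.0114) and GNLY 5.12, 1.56 and 3.87 (fell by 2.92, adjusted p = 0.0487). Apart from PTGFR and the system N transporter, each of these falls missed the threshold when at least 1 array was left out, such as GNLY without Ubirth replicate 2 (-1.95), EM4c without U120 replicate 2 (-0.77), EM4b without Ubirth replicate 2 (at least 2.02-fold lower), CRYBB3 without Ubirth replicate 3 (at least 2.88-fold lower) and LTF without U120 replicate 2 (-2.27). With slide as a fixed term 13 members passed, all of them higher at birth, and the fitted changes of EM4b (0.14), PTGFR (0.24) and GNLY (1.73) turned upward.

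**Figure D5:**
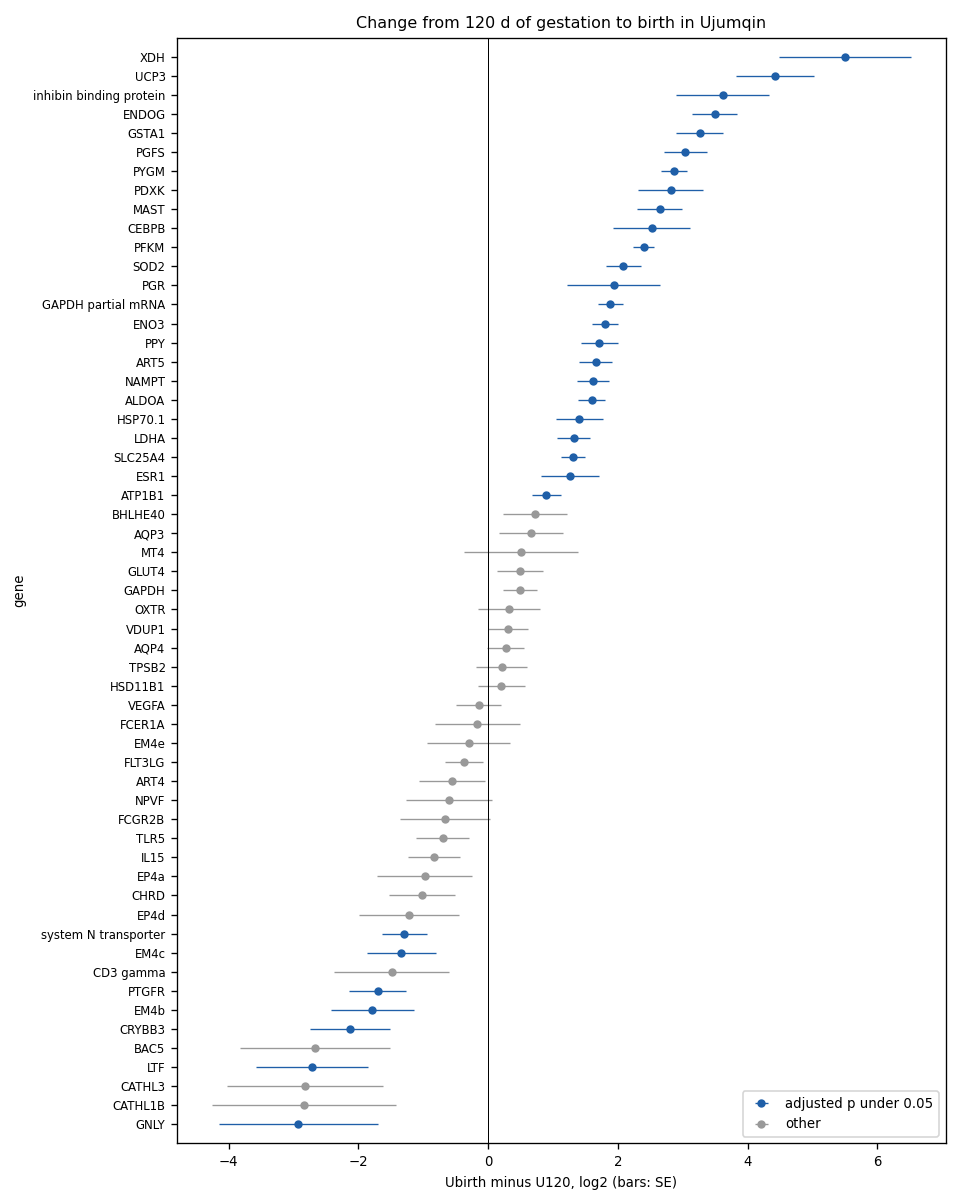
Change from U120 to Ubirth for each of the 57 genes, log2 with SE bars, ordered by size; blue marks an adjusted p under 0.05. Metabolic and redox genes such as XDH (5.50), UCP3 (4.42) and ENDOG (3.49) lie at the top, and LTF (-2.71) and GNLY (-2.92) at the bottom.

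From birth to 1 month 11 members rose and 5 fell (9.87% and 11.4% of probes). Of these 5, the cathelicidins fell furthest. CATHL1B went from 12.20, 12.20 and 9.38 at birth to 5.37, 2.87 and 1.56 (fell by 7.99, adjusted p = 0.000659), and BAC5 from 11.68, 10.81 and 8.57 to 4.65, 4.49 and 3.48 (fell by 6.15, adjusted p = 0.000991). CATHL3 went from 11.31, 10.72 and 8.52 to 3.86, 2.23 and 2.64, at least 113-fold lower (adjusted p = 0.000377), with no 1 month array well above background. Every 1 month array lay below every birth array for all 3. ART5 went from 12.69, 12.20 and 12.47 to 11.76, 11.57 and 11.63 and fell by 0.80 (adjusted p = 0.0329), a call lost under 5 of 6 omissions (-0.85 to -0.68).

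Among the 11 that rose were GNLY, CD3 gamma and FCGR2B. GNLY read 7.43, 8.83 and 8.99 at 1 month and rose by 4.90 ± 1.22, CD3 gamma rose by 3.27 ± 0.88 and FCGR2B by 2.95 ± 0.69. The summed leukocyte markers were 3190 to 3750 at birth and 4920 to 8140 at 1 month, 2 of the 11 tested rose and 3 fell, and their part in these changes was not tested. With slide as a fixed term 0 members passed in this interval.

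From 1 to 2 months HSP70.1 was the 1 member called. It read 12.27, 12.85 and 11.86 at birth, 14.62, 13.22 and 13.40 at 1 month and 15.45, 15.09 and 15.48 at 2 months, and rose by 1.60 ± 0.37 in the second month (adjusted p = 0.0154, where 2.9% of probes rose), a call lost without U1month replicate 2 (1.33), U1month replicate 3 (1.42) or U2month replicate 3 (1.52). OXTR read 7.87, 9.06 and 8.85 at birth, 7.46, 7.69 and 8.09 at 1 month and 6.98, 5.65 and 5.93 at 2 months, the last group below the one before on every array (-1.56 ± 0.48, adjusted p = 0.0541). Over the whole Ujumqin series the group mean was highest at U120 for 5 members, U135 for 13, birth for 12, 1 month for 13 and 2 months for 14.

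A comparison that stays within a slide was added after the data had been seen. On slide 1, 51 of 57 members were higher on the 3 Ubirth arrays than on the 2 T85 arrays on average, with a median of 2.16, and 41 were higher on every array (33.4% of all probes were). On slide 3, 51 were higher at U1month than on the 1 U100 array, with a median of 2.11, and 48 on every array (39.4% of probes). The first of these also compares breeds.

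Other genes of the same pathways, outside the 57, were counted in the same fits. Of 4 further glycolysis and glycogen genes tested, 3 rose in Texel from 85 to 120 d (PYGL 0.95, HK1 0.72 and PRKAA2 1.00) and 1 in Ujumqin (PYGL 0.91). Of 27 further hormone and growth factor receptor genes, 7 rose and 1 fell in Texel and 3 rose in Ujumqin, among them GHR, the growth hormone receptor (1.83 and 1.64), EGFR (0.98 and 0.72) and TGFBR2 (0.74 and 1.45). HSD11B2, which inactivates the cortisol that HSD11B1 regenerates, fell by 1.31 in Texel. Of 9 cell cycle genes 7 fell in Texel and 4 in Ujumqin, with CDK1, the mitotic kinase, at -2.42 and -1.18, while 0 of 4 further mitochondrial and 0 of 3 further antioxidant genes rose in either breed. SLC25A5, another exchanger of ADP and ATP and 1 of these 4, fell by 1.28 in Texel (adjusted p = 0.000536).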

How the data were processed

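RNA of longissimus dorsi was hybridized to a 1-colour Agilent sheep array (15208 non-control spots, 15008 probes, 60 bases each), 1 animal on each of 40 arrays. Per the file headers, the deposited scanner files hold each spot's processed intensity, background-subtracted by Agilent Feature Extraction 10.5, the version the submitters' processing notes give. The deposited series table holds log2 values that the authors made from the same arrays by quantile normalisation, and it served to rank the members and as an alternative source of values. The genome build is not given in the sources used here.

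From the scanner files, processed intensity was floored at 1, quantile-normalised over the 40 arrays and taken to log2 after outlier spots had been dropped. Probes well above background on at least 1 array of a fit were tested with limma 3.58.1 in R 4.3.3 (lmFit and eBayes) with Benjamini-Hochberg adjustment at 0.05 over all probes tested. The 6 fetal and 3 postnatal stage contrasts and the difference between breeds came from 1 fit of the 28 arrays in 9 groups that the ranking did not use, and each breed contrast from the 2 groups of a stage (13943, 13960 and 13862 probes). Comparisons that share a group share its arrays. Nothing in the labels ties animals to litters, so p-values measure the spread between these animals only, and precision is set by how many arrays a group has.

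The members, gene lists and roles were chosen with earlier results of these data known. A gene is read by its highest-ranked probe, and genes of the lists by their brightest probe. Names came from the files for 38 members, a RefSeq gene ID for 10, a RefSeq synonym for 4 (assembly ARS-UI_Ramb_v3.0, names only) and the probe description for 5. Values by array are given for the 12 members highest in the ranking, for up to 3 with the smallest adjusted p in each comparison, for those that passed against the majority direction and for a breed difference that passed, and other members are given by their change. The limma fits were tested on simulated data. Tried besides were 75th percentile scaling, quantiles over fewer arrays, normexp, the deposited table, a floor of 16, no filter and a strict filter, a 2-fold limit, the methods' Welch test, 1 fit over 13 groups, sex, replicate number, slide as a fixed or random term, array weights and leaving out each array.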

Additional observations from a re-analysis of the deposited data

Results flagged for a closer look

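T100 was the only group with more than 3 animals, so it alone could be searched for single arrays far from the rest, and 12 of the 57 members had one. Chance marks about 1 in 20 groups. The members do not vary independently, since BAC5, GNLY and FCGR2B were all highest on replicate 4. The share over all probes was not counted, so whether 12 is more than on the array as a whole is not known. High arrays were BAC5 at 15.41 (group median 11.1), GNLY at 10.37 (5.45), FCGR2B at 6.56 (4.99), CHRD at 6.44 (5.64), PDXK at 10.33 (9.93) and TLR5 at 5.82 (5.42), all as log2 intensity. Low arrays were AQP3 at 5.49 (6.32), MAST at 5.82 (6.46), EM4b at 2.56 (4.14), VDUP1 at 14.21 (14.8), AQP4 at 11.76 (12.18) and ART4 at 4.06 (4.37). The summed leukocyte markers of the T100 arrays ran from 6180 to 17500, and their part in the high immune genes was not tested. Without T100 replicate 4, BAC5 rose by 3.12 from T100 to T120 (adjusted p = 0.0331, limma), where it changed by 1.97 with it (adjusted p = 0.232).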

How the results depend on the processing

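Of the 205 single-gene calls followed through 4555 alternatives, 3824 kept their direction and side of the threshold, 727 kept the direction and missed it, and 4 reversed, all with slide as a fixed term (UCP3 from T85 to T120 at -0.37, and EM4b at 0.14, PTGFR at 0.24 and GNLY at 1.73 from U120 to Ubirth). With slide as a fixed term the counts of members called were 1 (T85 to T120), 0 (U85 to U120), 0 (T85 to T100), 5 (T100 to T120), 0 (U85 to U100), 0 (T85 minus U85), 13 (U120 to Ubirth) and 0 (Ubirth to U1month), and with the methods' Welch test after adjustment, which fits each probe alone, 0, 5, 3, 0, 0, 0 for the 6 fetal contrasts in that order with U100 to U120 last, 0 for T85 minus U85, Ubirth to U1month and U1month to U2month. Array weights gave 16 (T85 to T100), 21 (T100 to T120), 33 (U85 to U100), 37 (U100 to U120) and 2 (T85 minus U85). An unadjusted p with a 2-fold limit gave 13 (U85 to U100), 22 (U100 to U120), 9 (difference between breeds in the change), 7, 1 and 6 (breeds at 85, 100 and 120 d) and 5 (U1month to U2month). The fit over 13 groups gave 10 (U85 to U100), 4 (T85 minus U85), 2 (T120 minus U120) and 2 (U1month to U2month). T85 minus U85 had 0 with the deposited table, no filter or sex, the difference in change 1 with normexp, and U1month to U2month 2 with 75th percentile scaling, normexp, the strict filter, the floor of 16 or sex. The causes were not tested.

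Leaving out each array gave 45 to 49 (T85 to T120), 33 to 41 (U85 to U120), 5 to 11 (T85 to T100), 25 to 41 (T100 to T120), 2 to 7 (U85 to U100), 6 to 12 (U100 to U120), 0 to 4 (difference in change), 0 to 0 (each breed contrast), 25 to 33 (U120 to Ubirth), 11 to 15 (Ubirth to U1month) and 0 to 3 (U1month to U2month). Replicate numbers did not pair the animals (correlations of same-numbered arrays -0.31 to 0.15), and a replicate block gave 50, 44, 5 and 38 members for T85 to T120, U85 to U120, T85 to T100 and T100 to T120 and 0 for T85 minus U85. A ranking of the top 80 or 120 probes would give 47 or 67 genes, and scanner values 58, 57 of them shared. Signal over background limits PGR, GNLY, EP4a, EM4b, EM4e and the inhibin binding protein at early stages. Sex could not be fitted for T120 minus U120, nor slide as a fixed term for U1month to U2month.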

Other observations

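Member genes also have 10 probes that did not reach the ranking, in 9 genes. From T85 to T120, 4 of these rose and from U85 to U120, 5 did, and 7 were higher in both. The 1 called lower was the second probe of the inhibin binding protein. It changed by -0.96 in Ujumqin (adjusted p = 0.0449, limma) and -0.75 in Texel (adjusted p = 0.0779), and was well above background on 1 of 40 arrays. Over the 9 group means that the ranking did not use, the mean of the 57 members was 7.86 at T85, 8.60 at T100, 10.17 at T120, 7.41 at U85, 8.43 at U100, 9.61 at U120, 10.14 at Ubirth, 10.15 at U1month and 10.35 at U2month.

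Among other named probes, the pattern of group means most like it was that of OVAR, an MHC gene set aside by name (Pearson r = 0.987), PRKAA2, a catalytic subunit of the energy sensor AMPK (0.981), and GATA3 (0.969), each over 9 groups that share slides. Of the members, ESR1 was most like the mean (0.98), and CATHL3 (-0.26), CATHL1B (-0.26) and BAC5 (-0.15) least.

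Marker lists for other cells of muscle, outside the members, moved as follows from 85 to 120 d. Of 11 adipocyte genes 4 rose and 3 fell in Texel and 2 rose in Ujumqin, with summed signals of 6680 to 8100 at T85, 8880 to 15500 at T120, 6170 to 8290 at U85 and 10900 to 11900 at U120. Of 8 fibroblast genes 1 rose and 2 fell in Texel and 0 changed in Ujumqin, and of 8 endothelial genes 1 rose and 1 fell in Texel and 0 changed in Ujumqin. Both erythroid genes and the nerve gene did not pass in either breed, and the erythroid sum went from 97100 to 146000 at U120 to 9110 to 90600 at Ubirth. Of 5 skeletal muscle genes 2 fell in Texel and 1 in Ujumqin, of 9 proteolysis genes 1 rose and 2 fell in Texel and 1 rose in Ujumqin, and of 2 sarcomere genes 1 fell in Texel, while the 1 calcium handling gene did not pass.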
